A study of Homo sapiens with 6 samples.

Results

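Microexons are very short internal exons, and those annotated with 27 bases or fewer were examined in K562 cells kept with or without an iron chelator. A microexon counted where another transcript of the gene joins the same flanking exons directly, so that the exon can be read as included or skipped. Members were chosen by measured values: the summed abundance of the including and the skipping transcripts, in TPM (a unit of transcript abundance that accounts for length and depth), had to average at least 1 over the 6 libraries. This left 608 microexon events of 27728 skipped-exon events of any length past the same limit. They cover 587 exons in 507 genes, of which 497 are protein-coding, and 64 genes hold at least 2 of them. The annotation holds 1209 microexon events in all, so 601 lay below the limit.

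K562 is an established line of erythroid leukemia cells. Polyadenylated RNA was sequenced from cells treated overnight in RPMI 1640 complete medium with 10 µM 21H7, a cell-permeable iron chelator (Chelator, 3 libraries), or with a matched volume of the solvent DMSO (DMSO, 3 libraries). Only 1 line, 1 dose and 1 time were examined. The replicates are described as biological, but nothing says how the cultures were kept apart, so p-values measure the spread between these libraries.

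An exon this short leaves little room for the exonic sequences that normally help the splicing machinery to recognise an exon, and its inclusion leans on the flanking introns. Microexons are best known from neurons, where the SRRM4 protein promotes their inclusion and PTBP1 represses many of them. Most neural microexons keep the reading frame and add a few amino acids to a protein, often at a surface that binds other proteins.

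Of the 4 microexons that passed the test for a change of inclusion, those of EIF4G1, DNAJC19 and ARF3 are shown because the comparison turns on them. Each stretch runs 5′ to 3′ on the strand of the gene, in GRCh38, with 40 bases of the upstream intron and 15 of the downstream intron in lower case and the microexon in capitals. DNM2, which has a well-known microexon, was added after its values had been seen.
EIF4G1: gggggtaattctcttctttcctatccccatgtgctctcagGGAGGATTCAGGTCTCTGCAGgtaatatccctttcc
DNAJC19: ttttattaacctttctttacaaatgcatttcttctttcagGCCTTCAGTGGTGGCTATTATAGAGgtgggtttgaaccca
ARF3: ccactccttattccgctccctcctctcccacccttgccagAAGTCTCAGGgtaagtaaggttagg
DNM2: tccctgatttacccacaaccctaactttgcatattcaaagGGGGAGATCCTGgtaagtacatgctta

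The EIF4G1 microexon has 21 bases at chr3:184316713-184316733 (+ strand), lies in coding sequence and sits between introns of 494 and 587 bases. The DNAJC19 microexon has 25 bases at chr3:180986998-180987022 (− strand) and is coding in the transcript that holds it. The ARF3 microexon has 10 bases at chr12:48941568-48941577 (− strand) and lies in the 5′ untranslated region. The DNM2 microexon has 12 coding bases at chr19:10808569-10808580 (+ strand). In the 36 intron bases that end 5 bases before the exon, T and C together took 25 positions upstream of EIF4G1 (14 T and 11 C) and 31 upstream of ARF3 (11 T and 20 C). All 4 exons shown follow AG and precede GT.

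Of the 587 microexons, 579 (98.6%) had AG before the exon and GT after it, against 97.1% of 25247 longer skipped exons, 4 had AG and GC, and 4 had other bases. They measured 2 to 27 bases with a median of 21. In total 396 (67.5%) had a length that is a multiple of 3, which keeps the reading frame, against 40.4% of the longer skipped exons. Within coding sequence the share was 77.0% (329 of 427), against 47.9% (5854 of 12216) of the longer exons, and outside it 41.9% (67 of 160). Coding sequence was read from the most abundant including transcript of each exon. The share was highest below 19 bases, with 75.6% at 2 to 9 bases and 76.5% at 10 to 18 bases, and it was 61.1% at 19 to 27 bases. These shares describe the annotation of expressed genes and were not tested.

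**Figure D1:**
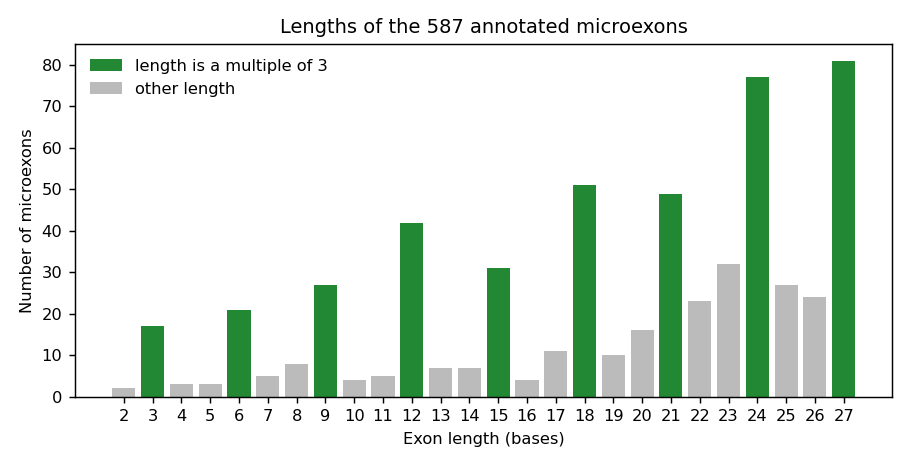
Number of microexons (y axis) by exon length in bases (x axis), with lengths that are a multiple of 3 in green and other lengths in grey. The green bars stand above their neighbours, with 81 exons of 27 bases, 77 of 24 and 51 of 18, against 4 of 16 and 10 of 19.

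In the most abundant including transcript of each, 427 of the microexons were coding by annotation and 36 spanned an edge of the coding sequence. Another 35 lay in a 5′ untranslated region, 20 in a 3′ untranslated region and 69 in transcripts without a coding sequence. Of the 587, 181 (30.8%) belonged to the canonical transcript of their gene, the transcript the annotation takes as its representative. Some transcripts are annotated as targets of nonsense-mediated decay, the pathway that destroys mRNAs with an early stop codon. For coding microexons that are a multiple of 3, the most abundant including and skipping transcripts were both annotated as protein-coding for 301 of 329. For the 98 coding microexons of other lengths this held for 28, while 37 had an including transcript and 13 a skipping transcript of the decay type. The 9-base and 21-base exons of PTK2 were counted as 3′ untranslated on a transcript of that type, although the canonical transcript also holds them.

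The flanking introns were shorter than those of the longer skipped exons, with medians of 1514 against 2073 bases upstream and 1402 against 1964 bases downstream. The 100 intron bases on each side were searched on the sense strand for TCTCT, a pyrimidine motif like those that PTBP1 binds, TGCATG, the motif of RBFOX proteins, TGC, as found near exons controlled by SRRM4, and CCCC, a run like those that poly C-binding proteins bind. TGC is part of TGCATG, and 554 microexons and 23966 longer exons had introns long enough. TCTCT lay upstream of 41.2% of the microexons and of 23.6% of the longer exons, but downstream of 16.4% and 16.1%. TGCATG lay downstream of 8.66% against 3.70%, and upstream of 3.61% against 2.87%. TGC was found upstream of 80.1% against 77.0% and downstream of 77.8% against 75.5%, and CCCC upstream of 24.4% against 27.2% and downstream of 24.9% against 23.4%. A match is a description of the letters and not a bound site. Upstream of the EIF4G1 microexon, CCCC occurred 4 times when overlapping matches are counted, and TCTCT once.

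The DMSO libraries held 78.6 to 90.4 M estimated counts and the Chelator libraries 85.4 to 101.1 M. As a check of the cell label, the erythroid genes GATA1 and HBG2 were at 151 to 178 TPM and 4879 to 7146 TPM, whereas SNAP25, RBFOX3, SYT1 and SRRM4 of the neuronal list stayed below 1 TPM in all 6 libraries. CD3E, CD79A and MS4A1 of the lymphoid list were below 1 TPM as well. The synaptic vesicle gene SYP was at 3.89, 3.92 and 2.93 TPM in DMSO and 11.4, 10.5 and 10.7 TPM in Chelator. Fragments averaged 252 to 264 bases in the DMSO libraries but 200 to 218 bases in the Chelator libraries, and an effect of fragment length cannot be told apart from one of 21H7. DMSO replicate 2 stood apart from the other DMSO libraries, with a chi-square per gene of 63.5 and 44.3 to them against 8.52 between them. Chelator replicate 1 stood apart less, at 29.9 and 28.1 against 6.54.

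Inclusion is given as percent spliced in (PSI), the TPM of the transcripts that hold the microexon as a share of the TPM of these and the transcripts that join its flanking exons directly. Transcripts with another exon between the same flanks are in neither group. Such transcripts had some TPM for 163 of the 608 events and more TPM than the event itself for 44, and where they were also counted as skipping, which was chosen after seeing the data, the median PSI was 6.11% in DMSO and 7.19% in Chelator. Of 605 events with a PSI in every library, 273 (45.1%) averaged under 5% in DMSO, 276 (45.6%) lay between 5% and 95%, and 56 (9.26%) were above 95%. Of the 26983 longer events, 31.2% lay at the low end and 25.2% at the high end. The median PSI was 9.06% in DMSO for microexons and 43.1% for longer exons, and in Chelator it was 9.68% and 43.9%. Exons of 2 to 9 bases had a median of 4.91% in DMSO, those of 10 to 18 bases 6.12% and those of 19 to 27 bases 10.8%, and skipped exons of 28 to 54 bases 24.1%. Coding microexon events had a median of 12.2%, those in 5′ untranslated regions 2.60% and those in 3′ untranslated regions 3.64%. These values come from annotated transcripts: 348 of the 608 events had 1 including transcript, 294 had under 100 including counts on average, and 60 had none in any library.

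Some microexons had a PSI near 100%. RPL41, which encodes a small ribosomal protein, carries the microexon event of the highest abundance (23 bases, 3205 TPM), with a PSI of 99.7% to 99.98% in the 6 libraries. Its 1 skipping transcript is annotated with 238 bases, below the mean fragment length of every DMSO library, and between transcripts that differ in this exon alone PSI averaged 93.1% in DMSO and 87.3% in Chelator, so the level is uncertain. SEPTIN7, a cytoskeletal GTP-binding protein, has a coding microexon of 2 bases, the shortest length found, with a PSI of 98.2%, 98.9% and 97.9% in DMSO and 98.6%, 99.1% and 98.7% in Chelator. With transcripts that hold another exon at this place counted as skipping, the SEPTIN7 means were 77.7% and 72.2%. RPS24, a ribosomal protein gene, holds 2 overlapping microexons with a common end at chr10:78040225, and their PSI ranged from 9.72% to 13.5% for the 22-base exon and from 0% to 0.056% for the 25-base exon. Ribosomal protein genes have many near-identical pseudogenes, so their values are less certain. RPS24, CLASP1, MACF1 and ASAH1 hold 4 microexons each, the most in any gene, and 35 microexons share an end with another.

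To examine how low iron availability changes microexon inclusion, Chelator was compared with DMSO. Inclusion rose past the test for 4 of 608 microexon events and fell for none. The 4 lie in EIF4G1, DNAJC19, ARF3 and ZNF615. The test was limma on the log2 ratio of including to skipping TPM over 36910 skipped-exon events, with a Benjamini-Hochberg adjusted p under 0.05 and a PSI change above 5 points. It called 0.723% of all events, and 0.276% were called with higher inclusion, so the 4 microexon events (0.658%) are near the background share for both directions. Of the 608 events, 15 reached 1 TPM only in Chelator and 7 only in DMSO. ZNF615 is among the 15, so its call is conditioned on the group in which it is high, and limited to events of at least 5 TPM the count was 3, without ZNF615. At an unadjusted p under 0.05, limma found 114 microexon events (18.8%), against 19.2% of all events tested. A further 4 events had an adjusted p under 0.05 with hardly any change of PSI, 2 in NDRG1 and 1 each in SH3GLB1 and RPS24. In NDRG1 inclusion was listed at 0 in every library and the skipping transcripts rose with the gene. Without 1 library at a time the count was 0 to 3, and it was 0 without DMSO replicate 2 (79 at an unadjusted p under 0.05 by limma) and without Chelator replicate 3 (82). With 1 TPM instead of 0.1 TPM added to both sides of the ratio, the count was 20 (13 higher and 7 lower). That is 3.29% of 608, against 4.08% of all events. With edgeR on counts, or with the replicate number as a block in limma, no event of any length was called.

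EIF4G1 encodes the scaffold of the cap-binding complex that starts translation. The PSI of its 21-base microexon was 0.778%, 0.711% and 0.445% in DMSO and 8.76%, 5.93% and 9.57% in Chelator, so every Chelator library lay above every DMSO library. The means were 0.644% ± 0.176 (SD, n = 3) and 8.09% ± 1.91 (SD, n = 3), with an adjusted p of 0.0102 in limma. Including transcripts held 488 to 914 counts in DMSO libraries and 4680 to 6492 in Chelator libraries, while skipping transcripts held 102044 to 110260 and 58968 to 71253. EIF4G1 as a gene fell, with a log2 fold change of −0.72 in DESeq2. Between transcripts that differ in this exon alone, PSI was 0.0935% in DMSO and 19.8% in Chelator, so the size of the change depends on the transcripts counted. The EIF4G1 microexon lost its call without DMSO replicate 2 (adjusted p = 0.0584 in limma) and without Chelator replicate 3 (adjusted p = 0.0529). It also lost it with edgeR on counts (adjusted p = 0.262) and with the replicate block in limma (adjusted p = 0.142).

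DNAJC19 encodes a protein of the mitochondrial inner membrane that belongs to the DnaJ cochaperones. Its 25-base microexon had a PSI of 52.3%, 52.1% and 53.8% in DMSO and 79.2%, 75.2% and 82.7% in Chelator, with no overlap between the groups. The change was 26.3 points, with an adjusted p of 0.0407 in limma. The event rests on 1 including transcript, annotated as protein-coding, and 1 skipping transcript, annotated as a target of nonsense-mediated decay. Another exon between the same flanks was held by transcripts of 69.1 TPM on average, against 7.40 TPM that include the microexon and 3.34 TPM that skip it. With those counted as skipping, PSI was 5.12%, 6.48% and 6.27% in DMSO and 11.5%, 9.84% and 15.5% in Chelator, and the event lost its call (adjusted p = 0.102 in limma). The DNAJC19 gene had a log2 fold change of 0.17 (adjusted p = 0.257 in DESeq2).

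ARF3 encodes a small GTPase that acts in membrane traffic at the Golgi apparatus. Its 10-base microexon in the 5′ untranslated region had a PSI of 10.3%, 8.68% and 8.15% in DMSO and 17.5%, 21.8% and 21.4% in Chelator, again without overlap. The change was 11.2 points, with an adjusted p of 0.0454 in limma. The including transcript is annotated with 807 bases and the main skipping transcript with 4041 bases.

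ZNF615 encodes a zinc finger protein. The PSI of its 21-base coding microexon was listed at 0% in all 3 DMSO libraries and 91.6%, 71.3% and 84.4% in Chelator, with an adjusted p of 0.0403 in limma. The event passed the abundance limit only through Chelator, with 0.167 TPM in DMSO and 2.35 TPM in Chelator (1.26 TPM on average). Including transcripts held 0 counts in DMSO and 53 to 58.6 counts in Chelator, and skipping transcripts 18.3 to 38.1 and 51.1 to 168 counts. The 1 including transcript is annotated with 561 bases and the main skipping transcript with 2698 bases, so the ZNF615 level also rests on the correction for length. DNAJC19, ARF3 and ZNF615 each lost their call in limma whichever library was left out.

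**Figure D2:**
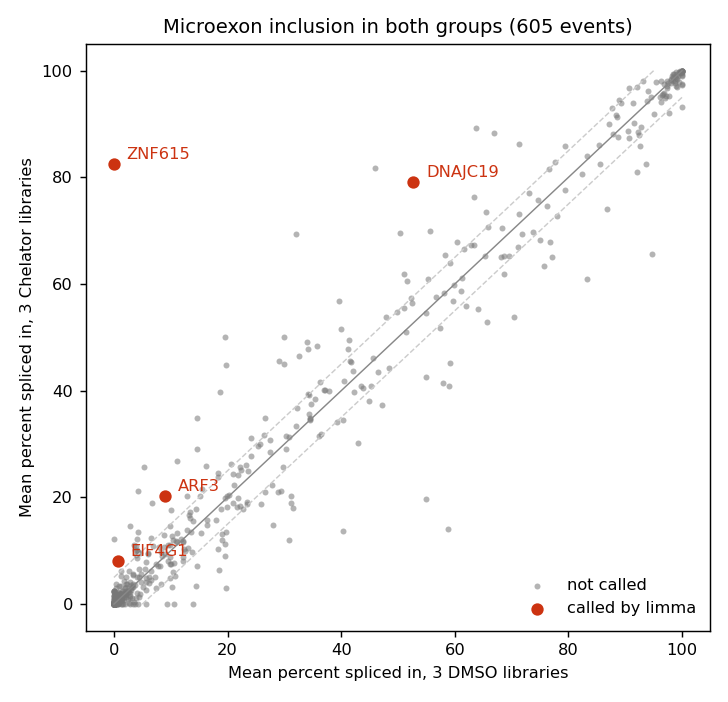
Mean PSI of each of 605 microexon events in the 3 DMSO libraries (x axis, percent) and the 3 Chelator libraries (y axis, percent), with the 4 called events in red. The solid line marks equal inclusion and the dashed lines a difference of 5 points. Of the events, 126 lie outside the dashed lines, 69 above and 57 below.

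Without any test, the 3 Chelator values lay all above the 3 DMSO values in 66 events and all below in 52, or 19.5% of 605. Over all skipped-exon events of at least 1 TPM the share was 21.0%. With a difference above 5 points as well, 35 were higher and 27 lower, or 10.2% of the microexon events, against a background of 10.8%. Either share is close to that of all skipped exons. The median change was 6.62e-05 points and the median size of the change 1.33 points, near the median SD between libraries of 1.27 points in DMSO and 1.41 points in Chelator. Microexons between 5% and 95% in DMSO had a median size of change of 4.23 points, against 4.42 points in longer exons of the same range.

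The same counts were read by length and motif. Without overlap, 11 events were higher and 7 lower of 88 with exons of 2 to 9 bases, 20 and 13 of 165 with 10 to 18 bases, and 35 and 32 of 352 with 19 to 27 bases. The share without overlap was 20.4% where the length was a multiple of 3 and 17.7% elsewhere. It was 22.3% with TCTCT upstream and 17.6% without it, 17.4% with CCCC upstream and 20.2% without it, and 20.4% (7 higher and 3 lower) with TGCATG downstream. None of these differences was tested. For the 77 microexons whose including transcript is of the decay type, the median PSI was 0.694% in DMSO and 0.747% in Chelator, with 4 higher and 5 lower without overlap. For 24 microexons whose skipping transcript is of that type, the medians were 52.1% and 59.5%, with 4 higher and 3 lower and a median change per exon of −0.099 points.

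Among events of at least 5 TPM whose groups did not overlap, the largest differences outside the called exons were chosen by size. None had an adjusted p under 0.05 in the main limma fit. With 1 TPM instead of 0.1 TPM added to both sides of the ratio, those of USP47, AGAP1, CCNL2, PTS, RPL23A and UCKL1 were called. USP47 encodes a deubiquitinating enzyme, and its 26-base microexon, in a transcript without a coding sequence, had a PSI of 71.5%, 58.2% and 70.8% in DMSO and 85.1%, 89.2% and 90.9% in Chelator (adjusted p = 0.0645 in limma). Its 1 including transcript is annotated with 548 bases and the 1 skipping transcript with 9994 bases. In DMSO they held 148 to 303 and 2707 to 3464 counts, so the USP47 level rests on the correction for length. URGCP, named as an upregulator of cell proliferation, had a PSI of 49.9%, 54.7% and 46.3% in DMSO and 79.9%, 62.3% and 66.4% in Chelator for 27 bases (adjusted p = 0.183). Both were thus higher in every Chelator library, by 21.6 and 19.2 points. With transcripts that hold another exon at the same place counted as skipping, the means were 36.7% and 58.2% for USP47.

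AGAP1 and ASAP1 encode GTPase-activating proteins for the ARF family to which ARF3 belongs. The 12-base microexon of AGAP1 had a PSI of 6.69%, 0.743% and 5.14% in DMSO and 16.6%, 24.3% and 23.0% in Chelator (adjusted p = 0.117 in limma). Between transcripts that differ in this exon alone, at 2.24 TPM on average, it was 25.9% and 87.2%. The 9-base microexon of ASAP1 had a PSI of 36.2%, 22.9% and 28.05% in DMSO and 43.7%, 46.1% and 46.7% in Chelator (adjusted p = 0.158). CCNL2 encodes cyclin L2, a cyclin linked to splicing factors. Its 14-base microexon, in a transcript of the decay type, had a PSI of 37.9%, 27.4% and 36.6% in DMSO and 49.9%, 50.4% and 47.4% in Chelator (adjusted p = 0.153).

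Lower values in Chelator were led by PTS, which encodes an enzyme of tetrahydrobiopterin synthesis. Its 23-base microexon had a PSI of 69.4%, 71.6% and 70.4% in DMSO and 57.4%, 53.6% and 50.2% in Chelator (adjusted p = 0.0755 in limma), and the main transcript without it is of the decay type. TMBIM4, a membrane protein of the Bax inhibitor family, had a PSI of 58.6%, 60.6% and 54.4% in DMSO and 32.0%, 51.3% and 40.8% in Chelator for 11 bases, but its groups overlapped, at 35.8% and 29.3% on average, with other exons between the same flanks counted as skipping. RPL23A, a protein of the large ribosomal subunit, had a PSI of 31.6%, 36.4% and 26.9% in DMSO and 17.3%, 19.5% and 17.0% in Chelator for 17 bases. The adjusted p was 0.197 for TMBIM4 and 0.105 for RPL23A in limma.

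AXL encodes a receptor tyrosine kinase, and its 27-base microexon had a PSI of 74.2%, 75.8% and 77.4% in DMSO and 59.9%, 64.1% and 66.0% in Chelator (adjusted p = 0.213 in limma). The AXL gene itself rose, with a log2 fold change of 2.09 in DESeq2. CSNK1G3, a casein kinase 1 isoform, had a PSI of 47.2%, 62.0% and 55.5% in DMSO and 45.3%, 41.2% and 41.5% in Chelator for 24 bases. Over transcripts that differ in this exon alone, at 1.41 TPM on average, inclusion of the CSNK1G3 microexon was listed at 0% in every library with a value, so its difference rests on other transcripts. UCKL1, related to uridine kinases, had a PSI of 92.1%, 92.8% and 91.2% in DMSO and 87.4%, 77.4% and 78.0% in Chelator for 17 bases. The limma adjusted p was 0.250 for CSNK1G3 and 0.122 for UCKL1.

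**Figure D3:**
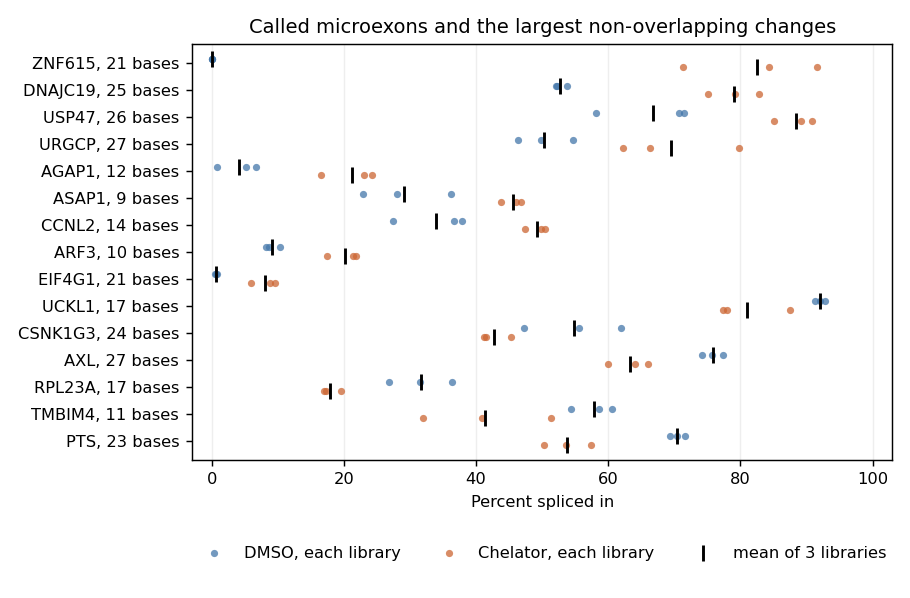
PSI in percent (x axis) of 15 microexons (rows), the 4 called and the 6 largest rises and 6 largest falls without overlap at 5 TPM or more, of which DNAJC19 is in both sets. Points are single libraries, DMSO in blue and Chelator in orange, and black bars are means of 3 libraries. In each row the 2 colours do not overlap.

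Genes known from the literature for microexons were then read, 25 in all, of which 24 held a microexon event past 1 TPM and APBB1 did not. They gave 41 microexons, each read by its most abundant event, 15 under 5% in DMSO, 22 between 5% and 95% and 4 above 95%. EIF4G1 was the 1 called. Without overlap, those of EIF4G1, DNM2 and CPEB4 and a 6-base exon of TAF1 were higher in Chelator, 4 in all, and the 18-base exon of KIF1B was lower. These 5 of 41 (12.2%) stand beside the 21.0% of all events without overlap, and the 1 called (2.44%) beside the 0.723% called of all events. In every library 5 were listed at 0%. The median change was 0.287 points. Less abundant events of the same exons are not in these counts, among them 1 of EIF4G3 that was higher without overlap (71.3% and 86.2% on average).

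Several neural microexons of the literature were near 0 in these cells. The 18-base microexon of SRC, a tyrosine kinase whose longer form is typical of neurons, was listed at 0% in all 6 libraries. The 27-base exons of KIF1B and CASK were also listed at 0% throughout. Each has 1 including transcript, annotated with 2098 bases in KIF1B and 667 bases in CASK. The main skipping transcripts have 10855 and 3754 bases, and the CASK event held 1.26 TPM. Each 0 thus rests on 1 shorter transcript. A 27-base exon of MEF2C was listed at 0% too, but its 1 including transcript is annotated with 125 bases, below the mean fragment length of every library, so this is no measure of its inclusion. In ITSN1, a scaffold of endocytosis, the 8-base form of the microexon, held by 1 transcript of the decay type, was listed at 0%. The 15-base form with the same end had 6.77%, 3.16% and 2.86% in DMSO and 5.65%, 7.59% and 27.3% in Chelator. Its DMSO level of 4.26% became 0.458% with flanking exons of the same ends and 0.965% between transcripts that differ in this exon alone. EIF4G3, a relative of EIF4G1, had 0.144%, 1.49% and 1.36% in DMSO and 2.35%, 2.06% and 1.39% in Chelator for 21 bases. These groups overlapped, but this is only the most abundant event of the exon. Over transcripts that differ in this exon alone, which held 0.2 TPM, its DMSO level was 100%. Between other flanking exons, the same exon had 84.1%, 49.3% and 80.4% in DMSO and 87.3%, 84.8% and 86.4% in Chelator, without overlap. There 2.49 TPM included it and 0.621 TPM skipped it. Another event of the exon averaged 31.8% and 35.8% with overlap, other exons counted as skipping. Its level near 0 thus holds for 1 event alone.

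Others were included in much of the RNA. The 12-base microexon of DNM2, a dynamin that pinches off membrane vesicles, had a PSI of 65.7%, 65.7% and 65.0% in DMSO and 73.6%, 72.9% and 74.2% in Chelator. This is a difference of 8.11 points without overlap and with small spread, but with an adjusted p of 0.155 in limma. Between transcripts that differ in this exon alone the DMSO level was 55.5%. CPEB4, a regulator of mRNA polyadenylation and translation, had a PSI of 53.5%, 53.0% and 50.4% in DMSO and 56.8%, 54.9% and 60.3% in Chelator for its 24-base microexon (adjusted p = 0.528 in limma), and a DMSO level of 70.9% over transcripts of at least 500 bases. The kinesin gene KIF1B had 40.3%, 36.9% and 40.6% in DMSO and 33.0%, 34.1% and 35.3% in Chelator for 18 bases (adjusted p = 0.471). The 3-base microexons of CLASP1 and CLASP2, proteins that bind the growing ends of microtubules, averaged 99.1% each in DMSO. A further 3-base microexon of CLASP2 lies between the same flanking exons and averaged 88.5%, but against the transcripts that skip both alone. With transcripts that hold the other exon counted as skipping, it averaged 6.59% and the other 92.6%.

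MEF2D, a muscle and neuron transcription factor, had a PSI of 34.6%, 34.2% and 40.3% in DMSO and 31.7%, 34.7% and 29.1% in Chelator for 21 bases. MEF2C had 11.8%, 14.2% and 12.9% in DMSO and 16.9%, 14.4% and 10.1% in Chelator for 24 bases, but a DMSO level of 1.33% between transcripts that differ in this exon alone. PTPRS, a receptor phosphatase, had 47.0%, 43.3% and 46.3% in DMSO and 46.0%, 45.1% and 47.5% in Chelator for 27 bases. The groups overlapped in these 3 exons.

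**Figure D4:**
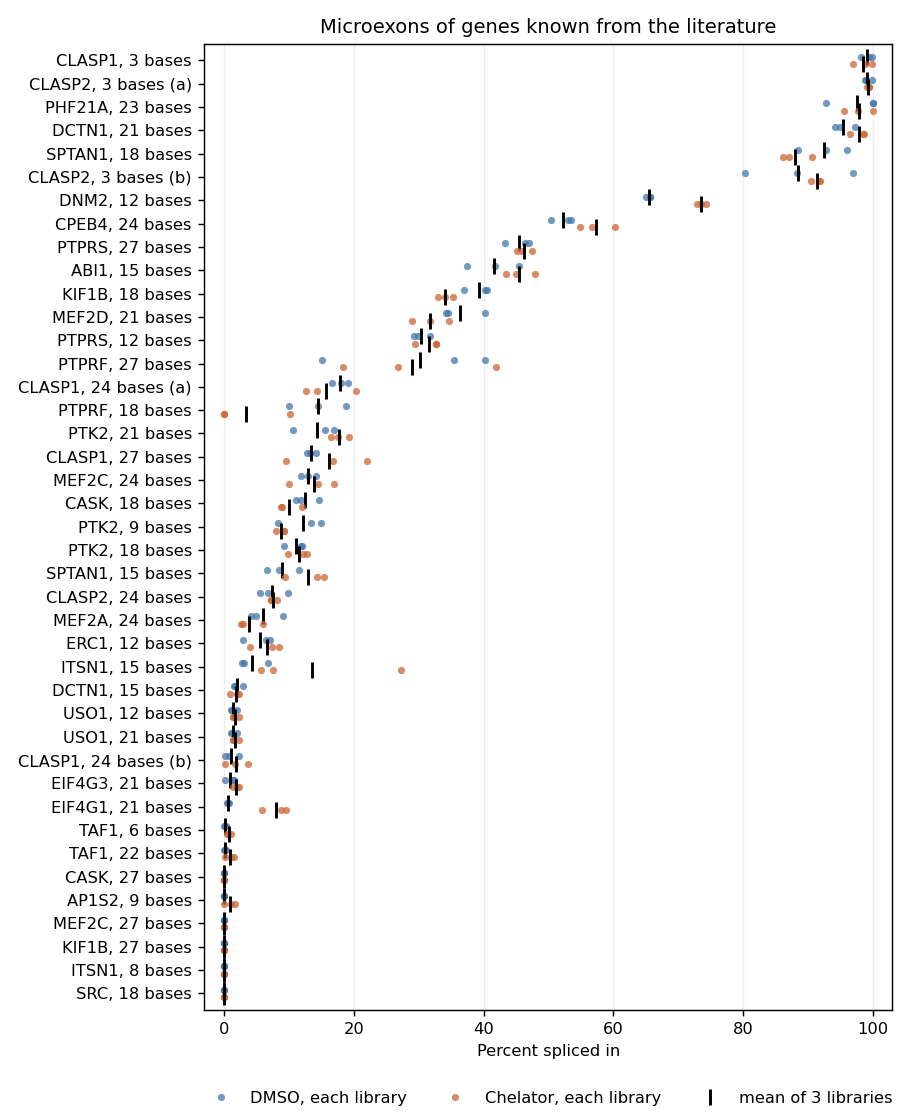
PSI in percent (x axis) of 41 microexons in 24 genes known from the literature (rows, by DMSO level), each by its most abundant event. Points are single libraries, DMSO in blue and Chelator in orange, black bars are means of 3 libraries, and letters separate exons of equal length in 1 gene. Most pairs of groups overlap, and the EIF4G1 and DNM2 rows are among those that do not.

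Of the 507 genes that hold microexons, DESeq2 called 26 (5.13%, with 20 higher and 6 lower) by a log2 fold change beyond 1 in either direction with an adjusted p under 0.05. The background was 10.3% of 25553 genes, and the difference was not tested. All genes needed only a total count above 10, while host genes hold an event of at least 1 TPM. The 2 sets were not matched for abundance. At an adjusted p under 0.05 alone, DESeq2 passed 302 of the 507 (59.6%), against 35.9% of all genes. Their median log2 fold change was −0.05, and that of all genes was 0.02. The called genes included NDRG1, a stress-induced gene (log2 fold change 4.49), ACE, which encodes angiotensin-converting enzyme (2.78), AXL (2.09) and, among those that fell, RYR1, a calcium release channel (−1.22). RYR1 had a 15-base microexon at 2.08 TPM in DMSO and 0.791 TPM in Chelator with a PSI of 53.3%, 57.0% and 54.4% in DMSO and 0%, 24.6% and 34.5% in Chelator (adjusted p = 0.196 in limma). The event passed the abundance limit only through DMSO, the group in which inclusion was high, so its difference and p are conditioned on that limit. RYR1 was chosen after its values had been seen.

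Of 34 genes for splicing regulators, 32 had an adjusted p in DESeq2, and SRSF1, PCBP4 and SRRM3 were called, 3 of 32 (9.38%) beside the 10.3% of all genes. SRSF1, an SR protein that binds exons, was at 582, 678 and 632 TPM in DMSO and 288, 319 and 344 TPM in Chelator, a log2 fold change of −1.02 ± 0.08 (SE). SRRM3, a relative of SRRM4 that also promotes microexon inclusion, was at 0.406, 0.605 and 0.404 TPM in DMSO and 1.29, 0.793 and 1.19 TPM in Chelator, a log2 fold change of 1.20 ± 0.28 (SE). PCBP4, a poly C-binding protein, was at 1.52, 2.14 and 1.64 TPM in DMSO and 4.03, 3.11 and 5.24 TPM in Chelator, a log2 fold change of 1.21 ± 0.21 (SE). The groups did not overlap in any of these genes, and SRRM3 and PCBP4 stayed at a low level. Without the transcript length offset SRRM3 alone was called. SRSF1 then had a log2 fold change of −0.99 (SRSF1 expression) and PCBP4 one of 0.96 (PCBP4 expression). SRSF1 also fell short of a log2 change of 1 with edgeR (−0.98), without DMSO replicate 3 (−0.99) and without Chelator replicate 1 (−0.97). MBNL2 (MBNL2 expression), at 0.96 and not called, reached 1.00 with edgeR and 1.01 without Chelator replicate 2 or 3, and was then called.

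At an adjusted p under 0.05 alone, 18 of the regulators (56.2%, against 35.9% of all genes) changed, 4 higher and 14 lower, with a median log2 fold change of −0.18 over the 32. The regulators and all genes were not matched for abundance either. Besides SRSF1, the lower genes were SRSF2 (−0.69), MBNL1 (−0.52), PUF60 (−0.38), QKI (−0.38), TRA2A (−0.36), PCBP1 (−0.35), RNPS1 (−0.34), CELF1 (−0.30), RBFOX2 (−0.30), TRA2B (−0.27), PTBP3 (−0.25), PCBP2 (−0.25) and SF1 (−0.20). Besides SRRM3 and PCBP4, MBNL2 (0.96) and U2AF2 (0.28) were higher. Without the length offset, the DESeq2 adjusted p was 0.308 for U2AF2 and 0.056 for SF1. MBNL and QKI proteins steer alternative exons, and RNPS1 acts in exon recognition with the exon junction complex. PTBP1, the repressor of neural microexons, had a log2 fold change of 0.19 (adjusted p = 0.0623 in DESeq2), but PTBP1 expression without the length offset gave −0.31. SRRM4 held 0 to 5 counts per library and was not tested, and 5 of the 34 stayed below 1 TPM in every library. Whether these genes have a part in the inclusion values was not tested.

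**Figure D5:**
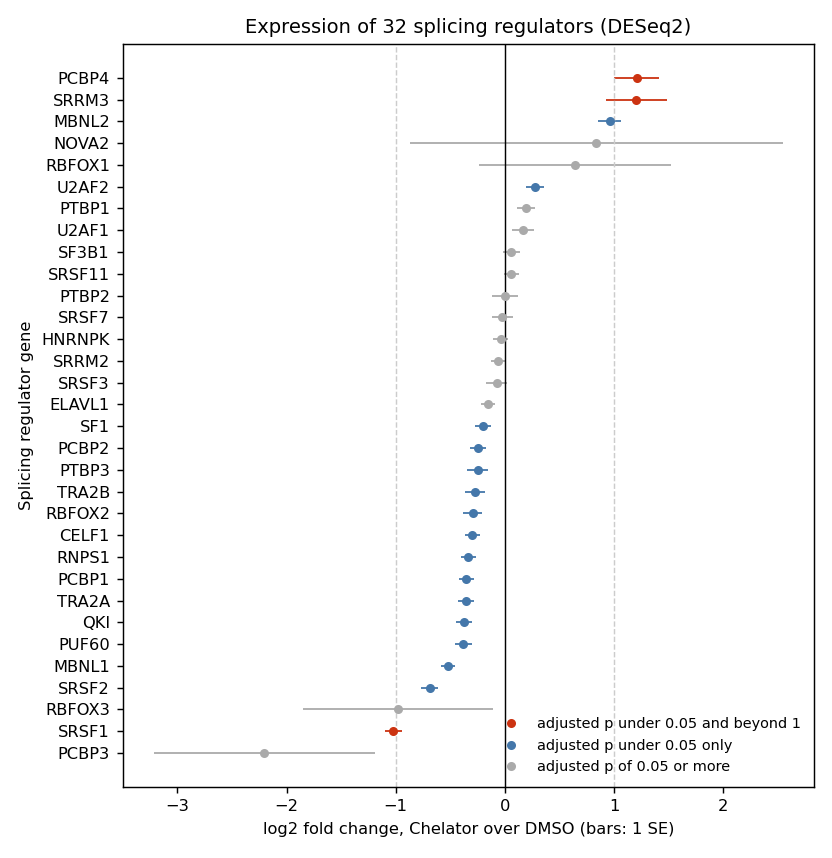
The log2 fold change of Chelator over DMSO (x axis) for 32 splicing regulator genes (rows), from DESeq2, with bars of 1 SE. Red marks the 3 called genes, blue the others at an adjusted p under 0.05 and grey the rest, and more blue points lie left of 0 than right of it.

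At the abundance limit, the members just inside were NRSN2 (24 bases, 1.01 TPM) and APBB3 (6 bases, 1.03 TPM), and those just outside were KCNQ5 (21 bases, 0.991 TPM) and SLIT2 (12 bases, 0.974 TPM).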

How the data were processed

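The authors quantified paired-end reads with Salmon (1.10.2 in the submitters' processing notes, genome build hg38) and deposited, per library, an estimated count and a TPM for each of 252045 transcripts. Of these, 251142 had the version and length of GENCODE release 44 on GRCh38 and formed the events. PSI was computed from the deposited TPM. Junction counts, on which the study measured splicing, were not used here.

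limma (3.58.1) tested log2((including TPM + 0.1)/(skipping TPM + 0.1)) over events with a mean of at least 10 including or 10 skipping counts, with the prior variance as a trend on abundance. DESeq2 (1.42.0) tested estimated counts summed per gene and rounded, for totals above 10, with transcript lengths as an offset. edgeR (4.0.16) was an alternative. Scripts were tested on simulated data. Python (3.11.15) built the events.

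Named were all called microexons, the 6 largest rises and 6 largest falls at 5 TPM or more without overlap, microexons of 25 known genes, and the most abundant, shortest and threshold exons. A marker gene and 1 sequence are not reported here. Members and lists were chosen with earlier results of these data known. Alternatives were other pseudocounts, filters, transcript sets, tools, the replicate block and leaving out each library.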

Additional observations from a re-analysis of the deposited data

How the results depend on the processing

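The count of 4 called microexon events rose to 20 (13 higher and 7 lower, 3.29% of 608) with a pseudocount of 1 TPM, which called 4.08% of all events, and was 2 without a count filter and 2 with 10 counts on both sides. With edgeR on counts it was 0 (53 at an unadjusted p under 0.05), and edgeR also called 0 of all 36910 events (3106 at an unadjusted p under 0.05). With the replicate block in limma it was 0 as well (86 at an unadjusted p under 0.05), and limma with the block called 0 of all events (6086 at an unadjusted p under 0.05). Same-numbered libraries correlated at −0.00765 to 0.0243 in their deviations for events and −0.0177 to 0.0854 for genes. Differently numbered libraries correlated at −0.0333 to 0.0193 for events and −0.0881 to 0.0583 for genes. No clear pairing by number was seen, but 3 libraries per group cannot exclude it. Without 1 library at a time it was 0 to 3. A pseudocount of 0.01 TPM, 1 prior variance, other transcript sets, 5 TPM, and a 1 TPM limit on all tested events that was chosen after seeing the data, gave 3 or 4. Called lower were SLIT2 with 0.01 TPM, PDLIM5 with flanking exons of the same ends and TIMM50 without DMSO replicate 3. Of the 3 called without that library, TIMM50 and CEP78 (higher) were not among the 4. With other exons between the same flanks counted as skipping, also chosen after seeing the data, it was 3, without DNAJC19. The 118 events without overlap (19.5%) became 64 of 281 (22.8%, against 22.6% of other skipped exons) where transcripts differ by the exon alone. They were 117 of 568 over transcripts of at least 500 bases (20.6%, against 21.4% of other skipped exons). With the same flanking ends they were 95 of 444 (21.4%, against 21.2%). At 5 TPM or more they were 94 of 457 (20.6%, against 24.2%). With other exons counted as skipping they were 123 of 606 (20.3%, against 21.55%). The 26 called host genes stayed at 26 to 29 with other tools and filters, and 21 to 29 without 1 library. The 3 called regulators became 1 without the length offset, and 2 to 4 without 1 library. Without that offset PTBP1 expression turned to a log2 fold change of −0.31 and SRSF11 expression to −0.025, from 0.19 and 0.06. DMSO levels of known microexons depend on the transcripts counted, and moved by more than the spread between libraries in 11 of 15 where transcripts differ by the exon alone, 4 of 37 with the same flanking ends, 3 of 40 with other exons counted as skipping (both 3-base exons of CLASP2, and PHF21A from 97.6% to 37.9%) and 1 of 39 over transcripts of at least 500 bases. The first of these sets took ABI1 from 41.6% to 0.167%, the 24-base exon of CLASP1 from 17.9% to 100%, the 21-base exon of DCTN1 from 95.4% to 0% (at 0.201 TPM) and EIF4G3 from 0.995% to 100%. TPM of annotated transcripts cannot show an unannotated microexon. The cause of these shifts was not tested.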
